A study of Mus musculus with 8 samples.

Results

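The regions described here are the broad H3K27me3 domains of C3H10T1/2, mesenchymal progenitor cells established from C3H mouse embryos. A domain entered the group if its listed peak spanned at least 40000 bp, counted from the deposited start to the deposited end, both included. This gave 285 of the 999 listed H3K27me3 peaks, and neither library's signal was used to choose them, although the length of a peak is itself an outcome of peak calling. The 2 groups compared are cells stably expressing FLAG-HA-tagged H3.3 that is either wild type (WT) or carries methionine in place of lysine 36 (K36M), both at passages 10 to 15. Chromatin was digested to mononucleosomes with micrococcal nuclease and spiked before precipitation with Drosophila S2 chromatin at 5% of its amount, a design called ChIP-Rx. H3K27me3, H3K36me2 and H3K36me3 were each measured in 1 library per genotype, so no difference between genotypes has a replicate check and no p-value is given. Whether a line is a clone is not stated in the labels. The cell line's markers were not checked, because the tables give no gene names.

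H3K27me3 is written by Polycomb repressive complex 2 (PRC2), whose EZH2 or EZH1 subunit transfers the methyl groups and whose EED subunit binds existing H3K27me3 and helps the mark to spread. Broad domains of the mark typically cover clusters of silent developmental regulators, of which the Hox clusters are the textbook case, while short peaks often sit at single CpG-rich promoters. Methylation of lysine 36 on the same histone tail hinders PRC2, and the K36M protein is known to inhibit H3K36 methyltransferases, including NSD2 and SETD2. The broad domains therefore bear on the question in the study's title, how mutant H3K36 goes with a remodelled H3K27 methylation landscape. Positions are given as deposited, in mm9. The gene and promoter tables used here are of another build, so no domain was given a gene name or a sequence.

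The 285 domains carried most of the listed H3K27me3. They made up 28.5% of the peaks but 20.5 Mb of the 33.7 Mb covered (60.8%) and 61.0% of the WT signal, with a median length of 60.6 kb against 17.4 kb for the 714 shorter peaks. Values are spike-in normalized reads per peak, called normalized reads here. They are whole multiples of 1 step per library, taken here as its spike-in factor and as the worth of 1 read. On that reading a domain held at least 1591 reads in WT and 561 in K36M, with medians of 3009 and 2029, so counting error was small. Its median size was 0.04 on the log2 scale, against 0.08 for the shorter peaks. Intervals given for single domains are exact Clopper-Pearson 95% intervals of these reads. They cover counting error only, not the error between cultures or precipitations.

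Over the group as a whole, H3K27me3 differed little between the genotypes. Summed over the domains, WT had 187056 normalized reads against 178896 for K36M, and the ratio was 0.956. The median domain had a log2 ratio of K36M to WT of −0.08, with quartiles of −0.25 and 0.09, against a median of −0.09 for the shorter peaks. Of the 285 domains, 169 (59.3%) were lower and 116 were higher in K36M, where 62.5% and 37.5% of all 999 peaks were lower and higher. The difference in the middle of the distribution is thus near that of the whole table. Its size also depends on the precision of the scaling. The steps have 2 decimals, and the values that rounding allows for them give total ratios from 0.913 to 1.003 and medians from −0.14 to −0.01. The total ratio crosses 1 within these bounds, and the median comes near 0 at the upper bound without crossing it. At these bounds 200 domains were lower and 85 higher, or 144 lower and 141 higher.

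Single domains departed from this median by far more than counting error. Their log2 ratios had an SD of 0.321, or 0.318 once the counting variance was removed. The counting interval lay wholly below a ratio of 1 in 138 domains (48.4%) and wholly above it in 82 (28.8%), against 42.3% and 22.1% of all peaks, whose fewer reads give wider intervals. These counts take the rounded steps as exact, and the other values that rounding allows were not applied to them. Large differences were uncommon: 18 domains (6.32%) were lower by 1.5-fold or more and 4 (1.4%) higher by that much, beside 8.11% and 3.4% of all peaks. At 2-fold, 4 were lower and 0 were higher, with 1.7% and 0.701% of all peaks past that size. Of the 18 domains at least 1.5-fold lower, 9 lay on chromosome 15 and 4 on chromosome 10. Without chromosome 15 the count was 9, and the total ratio of the other domains was 0.982.

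Signal per kb varied more over the domains in K36M than in WT, and Spearman's rho between both was 0.48. WT signal ranged from 6.88 to 16.1 normalized reads per kb over the domains, and its coefficient of variation was 15.3%. K36M signal ranged from 3.16 to 18.0 per kb, with a coefficient of variation of 24.7%. The medians were 8.82 and 8.47. In K36M, 50 of the 285 domains lay below the lowest WT level of any domain, as did 130 of the 714 shorter peaks. In WT, 38 of the shorter peaks lay below that level, and by its definition no domain can. The shorter peaks also varied more in K36M than in WT, with coefficients of variation of 34.6% and 19.5%. The library in which peaks were called is not given in the sources used here, and its part in this difference was not tested. Spearman's rho with the log2 ratio was −0.15 for WT density and 0.74 for K36M density over the 285 domains, as a description. Each density is also part of the ratio, which favours these signs.

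**Figure D1:**
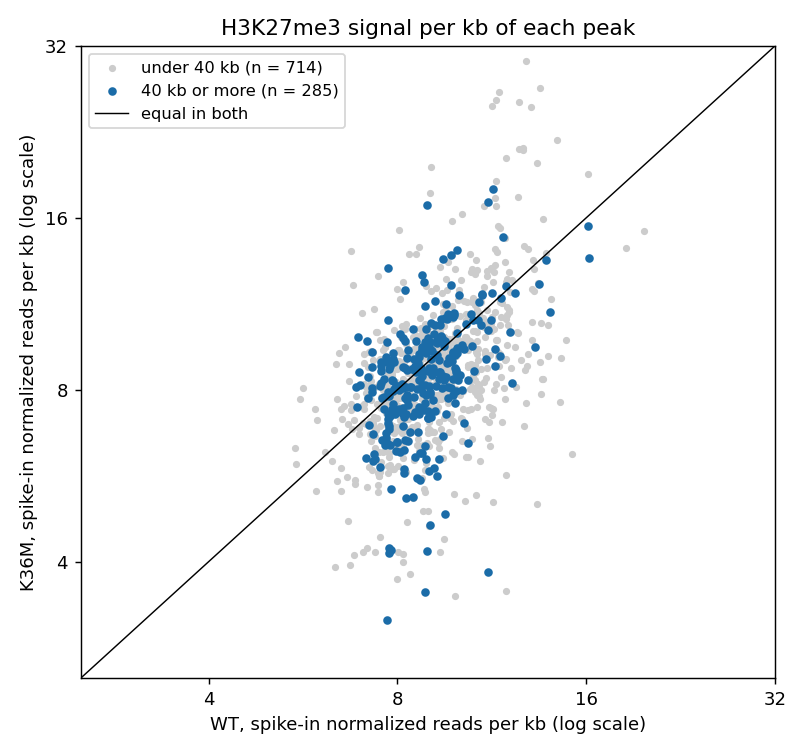
H3K27me3 in spike-in normalized reads per kb for each listed peak, WT on the x axis and K36M on the y axis, both log scales. Blue points are the 285 domains of 40 kb or more, grey points the 714 shorter peaks, and the line marks equal values. The blue points span 6.88 to 16.1 per kb in WT and a wider range, 3.16 to 18.0, in K36M.

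The 28 domains with the lowest ratios (log2 from −1.54 to −0.48) had median densities of 8.81 in WT, close to the 8.82 of the whole group, and 5.63 in K36M. The 28 with the highest ratios (0.24 to 0.92) had medians of 8.34 in WT and 11.3 in K36M. Both sets were ranked by the ratio and are described without a test. Split by the geometric mean of both genotypes, the 95 least dense domains had 75 lower and a median log2 ratio of −0.23, and the 95 densest had 41 lower and 0.04. The order turned round when WT density alone made the split, with −0.01 for the 95 least dense and −0.10 for the 95 densest, so no direction with density holds for all splits.

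The domains at the ends of the density scale show both patterns. By the mean of both genotypes the densest was chr13:23464800-23504799, one of those of exactly 40 kb, with 16.1 per kb in WT and 15.5 in K36M. The domain chr1:90108400-90164599 had 11.4 in WT and the highest K36M density, 18.0. Among the least dense, chr2:62312000-62361599 lay in the ordinary WT range with 7.77 per kb and had 4.14 in K36M, a ratio of 0.533 (0.491 to 0.579). On chromosome 16, chr16:26503200-26560599 had 8.90 and 4.18, a ratio of 0.469 (0.435 to 0.505). Neither is near a listed H3K36 peak: the gaps were 670 kb and 222 kb.

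Length had no steady relation to the ratio. The median log2 ratio was −0.07 in 85 domains of 40 to 50 kb and −0.11 in 57 of 50 to 60 kb. It was −0.06 in 61 domains of 60 to 80 kb, −0.13 in 33 of 80 to 100 kb and 0.00 in 49 of 100 kb or more. Below the limit, peaks of 30 to 40 kb had −0.10 and peaks under 10 kb had −0.14. These medians go up and down with no order, and Spearman's rho between length and log2 ratio was −0.01 over the 285 domains. Within chromosome 15 it was 0.19 (49 domains), within chromosome 2 it was 0.04 (45) and within chromosome 11 it was −0.14 (34).

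Among the 49 domains of at least 100 kb, 24 were lower and 25 higher, beside 62.5% lower among all peaks. By 1.5-fold or more, 1 was lower and 0 were higher, beside 8.11% and 3.4% of all peaks. Their SD was 0.24, against 0.37 in the domains of 40 to 50 kb and 0.48 in peaks under 10 kb. Median counting error over the same bins was 0.03, 0.05 and 0.13, so counting accounts for only a small part of each spread. Signal per kb in WT was highest in the shortest peaks: WT medians were 8.85 in domains of 40 to 50 kb and 9.06 in those of 100 kb or more, and 10.2 in peaks under 10 kb. K36M medians in the same bins were 8.32, 9.05 and 9.16.

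**Figure D2:**
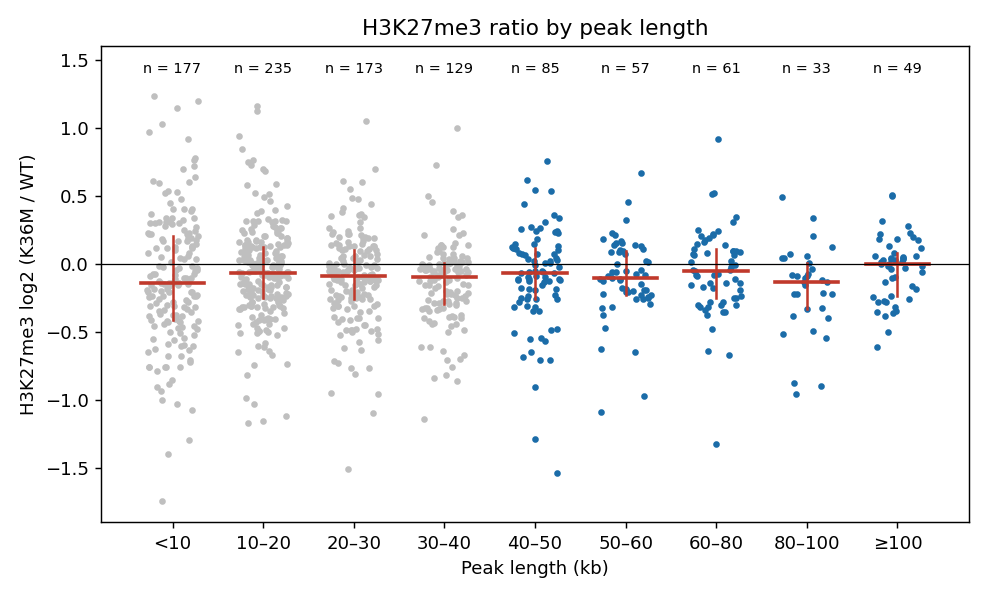
Log2 ratio of K36M to WT H3K27me3 signal by peak length in kb; each point is a peak, the red bar is the median and the red line runs between the quartiles. Domains of 40 kb or more are blue, shorter peaks grey. The medians of the blue bins lie between −0.13 and 0.00.

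The 6 longest domains fell on both sides of a ratio of 1. The longest, chr15:102725000-102978399 (253 kb), went from 4091 normalized reads in WT to 3453 in K36M, and its ratio was 0.844 (interval 0.826 to 0.862). In WT it was also the densest domain by signal per kb, at 16.1, and had 13.6 in K36M. The 242 kb domain chr11:96006400-96248199 had 3384 and 2642, and its ratio was 0.781 (0.762 to 0.80). These were the strongest domains in WT among the 6, and both were lower in K36M.

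The other long domains differed among themselves. On chromosome 10, the 219 kb domain chr10:23630400-23849599 held 1974 in WT against 1740 in K36M, and its ratio was 0.881. The 190 kb domain chr10:18278400-18467999, on the same chromosome, had 1662 and 1175, a ratio of 0.707 (0.682 to 0.733). In the opposite direction, the 191 kb domain chr11:118659800-118850999 had 1759 and 2192, a ratio of 1.25 (1.21 to 1.28). It lies on the same chromosome as the domain with a ratio of 0.781. The 178 kb domain chr2:74483400-74661599 was nearly equal, with 1695 and 1737 and an interval of 0.993 to 1.06.

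The 3 domains of exactly 40 kb had ratios of 0.964 on chromosome 13, 1.17 on chromosome 14 and 1.36 on chromosome 19. The 3 peaks just below that length, of 39.4, 39.6 and 39.8 kb, had 0.929, 0.967 and 0.967, each with a counting interval that includes 1.

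The domains were unevenly spread over the genome: chromosomes 15, 2 and 11 held 49, 45 and 34 of them, 44.9% of the group, against 29.0% of the shorter peaks. Chromosome 18 had 4 listed H3K27me3 peaks, of which 0 reached 40 kb, and chromosomes 3 and 7 had 1 and 2 domains. Among the 17 chromosomes with at least 3 domains, the median log2 ratio was below 0 on 11 and above 0 on 6, from −0.22 on chromosome 9 (5 domains, 5 lower) to 0.52 on chromosome X. For 15 of these 17 chromosomes the shorter peaks had a median of the same sign.

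Chromosome 15 had 41 of its 49 domains lower in K36M, beside 80.7% of all its H3K27me3 peaks. Its median log2 ratio was −0.19 and its summed ratio 0.852. Chromosome 17 went the other way, with 13 of 15 domains higher, a median of 0.12 and a range of −0.18 to 0.76, while 41.4% of all its H3K27me3 peaks were lower. Its 55 shorter peaks were near even, with 27 lower and a median of 0.01. Its highest domain, chr17:30816800-30858999, held 326 in WT against 552 in K36M, 1.69 times as much (interval 1.59 to 1.80). Chromosome 2, with nearly as many domains as chromosome 15, was even: 22 lower and 23 higher, with a median of 0.04. Chromosome 11 had 20 lower and 14 higher.

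Chromosome X had the highest median, and its 12 shorter peaks were nearly as high, with a median of 0.46 and 1 lower. Of its 7 domains, 6 had ratios between 1.37 and 1.53. The seventh, the 105 kb domain chrX:49729200-49834599, held 959 in WT against 896 in K36M, and its ratio was 0.935 (0.895 to 0.976). About a megabase further on, chrX:50969000-51017199 had 396 and 575, a ratio of 1.45 (1.37 to 1.54). The highest, chrX:99987800-100030599, had 478 and 730, a ratio of 1.53 (1.45 to 1.61). WT density on this chromosome was ordinary, at a median of 8.81 per kb, and K36M density was 11.9. The H3K36me3 peaks of chromosome X, all lower in K36M as elsewhere, were also lower by less, with a median 0.30 above that of all H3K36me3 peaks. Only 2 H3K36me2 peaks lay on this chromosome, 0.49 above the median of that mark. The input libraries were not analysed here, so what the marks share on this chromosome was not tested.

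**Figure D3:**
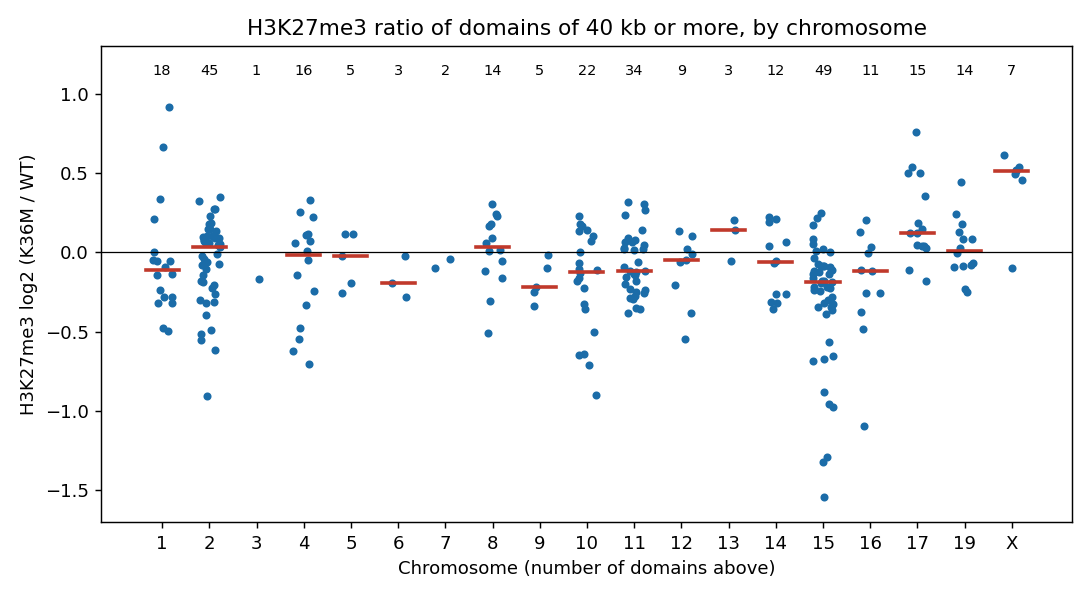
Log2 ratio of K36M to WT H3K27me3 signal for each domain of 40 kb or more, by chromosome; red bars are medians on chromosomes with at least 3 domains and the numbers above give the domains. Chromosome X has the highest median, 0.52, and chromosome 15 holds the 3 lowest domains.

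Within chromosome 15 the lowest values were gathered in one stretch. In cuts of 20 Mb, made after earlier results on this chromosome were known, all 5 domains between 40 and 60 Mb were lower, with a median ratio of 0.410. The lowest ratio in the group was that of chr15:40944200-40989599, 0.344 (0.316 to 0.375), which held 506 normalized reads in WT against 174 in K36M. Its neighbour chr15:41166200-41227199 had 540 and 216, a ratio of 0.400, and chr15:53813600-53859799 had 356 and 146, a ratio of 0.410. Per kb these 3 domains had 7.71 to 11.1 in WT and 3.16 to 3.84 in K36M, so in WT they ran from below the lower to above the upper quartile (9.58) of the group. These domains were chosen by their ratios.

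The other segments of chromosome 15 had medians that were lower by less. Single domains close to the segment from 40 to 60 Mb were as low as some inside it. Outside, chr15:39933200-39990799 had a ratio of 0.509 and chr15:60688000-60771999 one of 0.544. Inside, chr15:52243200-52330599 had 0.515 and chr15:55731000-55792799 had 0.627. The 9 domains between 20 and 40 Mb had a median log2 ratio of −0.32, the 13 between 60 and 80 Mb −0.09, and the 6 below 20 Mb −0.17. The 9 domains between 80 and 100 Mb had −0.18 and the 7 beyond 100 Mb −0.24, both below the value for 60 to 80 Mb. In the segment from 40 to 60 Mb other listed peaks were low as well. Of the same mark, 9 shorter H3K27me3 peaks had a median log2 ratio of −0.82. Of the other marks, 86 H3K36me2 peaks lay 0.38 and 37 H3K36me3 peaks 0.34 below the median of their own mark. What these other peaks share with the domains was not tested.

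Of 42 such segments with at least 3 domains, all domains were lower in 5 and all were higher in 5. The highest median, 0.52, came from 3 domains of chromosome X between 80 and 100 Mb, followed by 0.25 for 6 domains in the first 20 Mb of chromosome 17. There the 31 H3K36me2 peaks lay 0.29 above the median of their mark. Over the 40 segments with at least 3 H3K36me2 peaks, Spearman's rho between the median H3K27me3 and H3K36me2 log2 ratios was 0.60. Over the 42 with H3K36me3 it was 0.36, and with the shorter H3K27me3 peaks of the same segment 0.38 over 38. The marks come from separate precipitations of cells of the same 2 genotypes, and each pair shares the DNA of the segment.

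Log2 ratios differed less between close domains than between distant ones. For 31 pairs of domains separated by under 50 kb, the median absolute difference of the log2 ratios was 0.12 (quartiles 0.06 and 0.22). It was 0.15 for 26 pairs at 50 to 200 kb, 0.19 for 104 pairs at 200 kb to 1 Mb and 0.18 for 347 pairs at 1 to 5 Mb. Beyond 5 Mb it was 0.24 to 0.26, close to the 0.26 between domains of different chromosomes. The share of pairs on the same side of a ratio of 1 was level up to 5 Mb and lower beyond. It was 64.5% under 50 kb, 61.5% at 50 to 200 kb, 65.4% at 200 kb to 1 Mb and 63.4% at 1 to 5 Mb. At 5 to 20 Mb it was 56.1%, at 20 Mb or more 57.3% and between chromosomes 50.9%. Without chromosome 15 the closest pairs differed by a median of 0.09 and domains of different chromosomes by 0.26. The share on the same side was then 76.2% under 50 kb, 50% at 50 to 200 kb and 64.2% at 200 kb to 1 Mb. It was 60.4% at 1 to 5 Mb, 50.7% at 5 to 20 Mb and 50.0% between chromosomes. Pairs share domains and are not independent of each other.

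Close pairs had similar values at very different levels. On chromosome X, 2 domains 25.6 kb apart had log2 ratios of 0.52 and 0.49. On chromosome 11, the domain from 96006400 and its neighbour 45.6 kb away had −0.36 and −0.35. The largest difference among the close pairs, 0.44, was between domains of chromosome 15 that lie 7.4 kb apart, with −0.57 and −0.12. Another pair on chromosome 15, only 5.2 kb apart, lay on both sides of a ratio of 1, with 0.08 and −0.28.

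**Figure D4:**
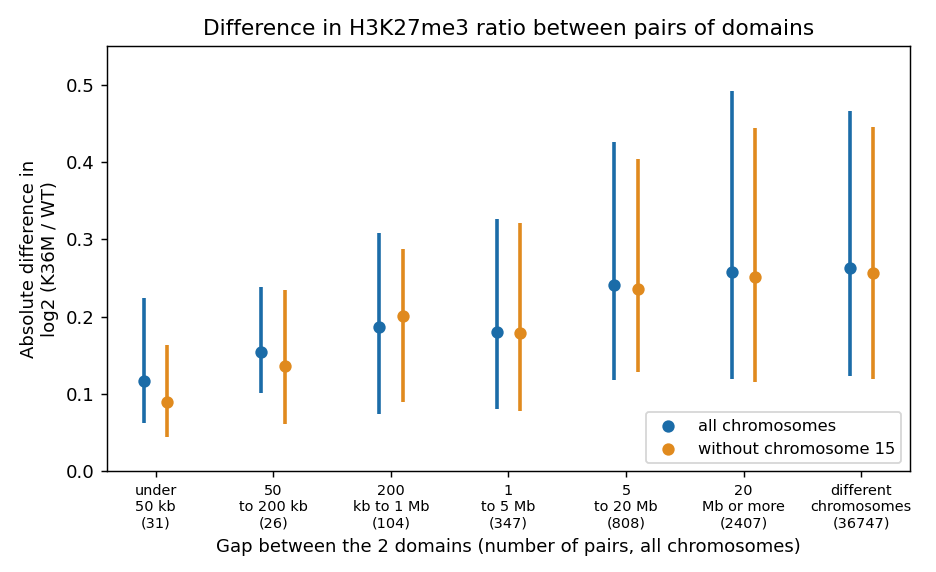
Absolute difference in log2 ratio between pairs of H3K27me3 domains of 40 kb or more, by the gap between them; points are medians and lines run between the quartiles, for all chromosomes (blue) and without chromosome 15 (orange). The median is 0.12 for gaps under 50 kb and 0.26 for domains of different chromosomes.

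Listed neighbours of any length were also closer for the broad domains. Their median gap to the nearest listed H3K27me3 peak was 114 kb, against 199 kb for the shorter peaks, and 113 of 285 (39.6%) had one within 50 kb, against 30.1%. Joining listed peaks over gaps of up to 10 kb gave 297 regions of at least 40 kb, of which 58 were made of several peaks. The largest of these joins was chr15:101552400-101799799, 247 kb from 3 peaks, holding 2583 in WT against 2302 in K36M, and its ratio was 0.891. The joined regions had a median of −0.08, as the domains as listed.

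Few broad domains overlapped a listed H3K36me2 or H3K36me3 peak. At least 1 bp was shared by 16 of 285 (5.61%), and the share was 5.60% for the shorter peaks. Of the 16, 10 were higher in K36M, where 37.5% of all H3K27me3 peaks were higher. Their median log2 ratio was 0.19, with an interval by ranks of −0.05 to 0.50, against −0.08 for the 269 other domains. That interval takes the 16 domains as independent. They share 1 library per genotype and are not replicates, so it is a description of spread only. In the 40 shorter peaks that overlapped, the median was 0.40. Without the 4 overlapping domains of chromosome 1, the median of the other 12 was 0.10. The ratios are over whole domains, and the shared stretches were not measured separately.

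The domains most covered by H3K36 methylation were all higher. In 4 of the 16, H3K36 peaks covered over 50% of the length. The highest ratio of the group was that of chr1:33870800-33948399, covered to 56.7%, where 692 in WT stood against 1306 in K36M and the ratio was 1.89 (1.81 to 1.97). The domain chr1:90108400-90164599, covered completely, had 639 and 1012, a ratio of 1.58 (1.51 to 1.66). The next domain on that chromosome, chr1:90175600-90222799, was covered to 66.1% and had 555 and 700, a ratio of 1.26. The last, chr17:6219600-6273199, was covered to 86.6% and had 514 and 570, a ratio of 1.11 (1.05 to 1.17).

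The domains chr1:90108400-90164599 and chr1:90175600-90222799 share the same H3K36 peaks, so they are not separate cases. There H3K36me2 was 1.79-fold lower and H3K36me3 2.21-fold lower in K36M. At chr1:33870800-33948399, the overlapping H3K36me2 peak was 1.33-fold lower, the smallest loss among the overlaps, and 3 H3K36me3 peaks were 1.96-fold to 3.53-fold lower. In all, the 15 H3K36me2 peaks in these overlaps had a median loss of 2.59-fold, against 4.19-fold over all 1691 listed ones. The 13 H3K36me3 peaks had 2.36-fold, against 3.28-fold over all 4999. As 100% of the peaks of either mark were lower in K36M, the direction in the overlaps is that of the tables.

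Overlap with less coverage went with ratios on both sides. Around 7 and 8 Mb of chromosome 17, chr17:7210200-7334199 and chr17:8186800-8312799 were covered to 14.2% and 16.2%, and had ratios of 1.42 and 1.41. The 127 kb domain chr15:77387400-77514199 was covered to 45.1% and held 1753 in WT against 1712 in K36M, and its ratio was 0.977 (0.946 to 1.01). The domain chr15:55731000-55792799, covered to 14.9%, was lower, with 510 and 320 and a ratio of 0.627. It lies in the low stretch of chromosome 15. Domain by domain, the ratios thus did not follow the order of coverage. Median log2 ratios rose over nested sets, from 0.19 for all 16 to 0.32 for the 11 covered to at least 10%. Of these 11, 7 were higher and 4 lower. The median was 0.50 for the 4 covered over 50%. These sets share domains, the relation was not tested, and all 4 domains covered over 50% lie on chromosomes 1 and 17.

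**Figure D5:**
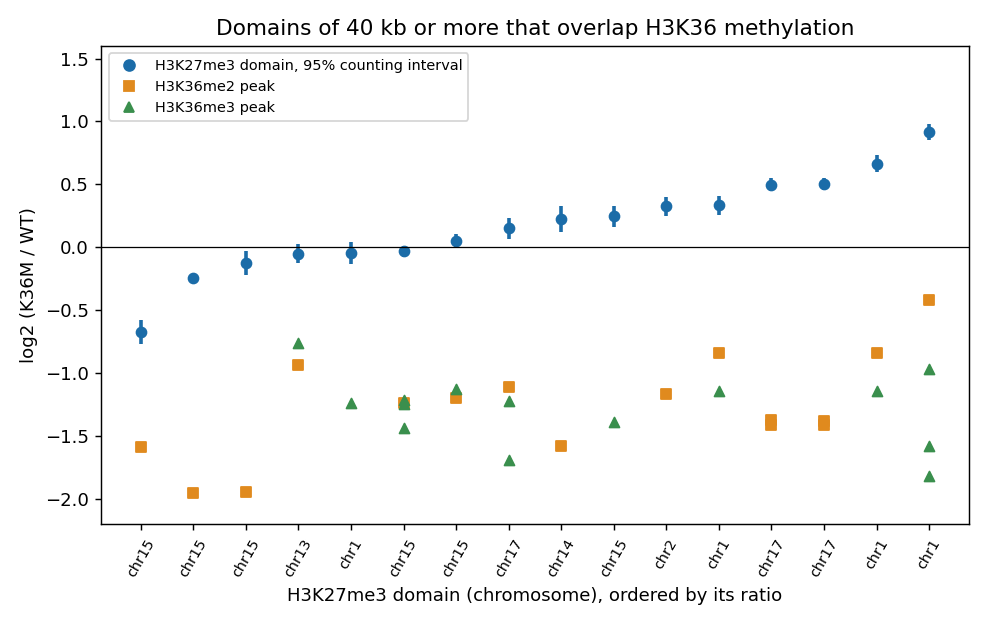
Log2 ratio of K36M to WT for the 16 H3K27me3 domains of 40 kb or more that overlap a listed H3K36me2 or H3K36me3 peak (blue, with 95% counting intervals), ordered by ratio, and for the overlapping H3K36me2 (orange squares) and H3K36me3 peaks (green triangles). The domains run from −0.67 to 0.92 while all H3K36 peaks lie below 0.

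Distance to H3K36 methylation gave no steady order. Without the overlaps, the 134 domains within 50 kb of a listed H3K36 peak had a median log2 ratio of −0.07. The 150 domains within 50 kb of a listed H3K36 peak, overlaps included, had −0.06 as their median log2 ratio, against −0.09 for the 135 farther away. Within 10 kb, overlaps again included, the median was −0.09 for 62 domains, against −0.07 for the rest. The 32 domains more than 200 kb away had −0.20, with 7 of them at least 1.5-fold lower, beside 8.11% of all peaks. All 7 domains of chromosome X, 6 of them higher in K36M, lay more than 200 kb away. They thus counted as far at each limit, and distance was not separated from chromosome. The sign of the difference between near and far thus changed with the distance used.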

How the data were processed

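ChIP-Rx was performed for H3K27me3, H3K36me2 and H3K36me3 in 1 WT and 1 K36M library each. Per the file headers, the authors deposited a signal: spike-in normalized reads in each peak. The submitters' processing notes list Bowtie 1.0.0, with mm9 for mouse; dm6 is listed too. Not given in the sources used here: the peak caller, the library peaks were called in and the factors' formula. All values of a column are whole multiples of 1 step, 0.18 for H3K27me3 in WT and 0.26 in K36M, and reads were taken as value over step. Ratios were computed without a pseudocount and signal per kb over the deposited length. Called means past the stated fold.

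Named domains were the 6 longest, the 4 densest and 4 least dense by geometric mean, the 6 lowest and 6 highest ratios, 3 on either side of the threshold and all that overlap H3K36 methylation. Domains of the 20 Mb segments, the close pairs, the joined region and chrX:49729200-49834599 were singled out after their values were seen. The group, tests and lists were chosen with earlier results of these data known. Gene lists could not be applied, as the gene tables used here are of another build. Input libraries were not analysed here. Alternatives concerned scaling, length, joining, pseudocount, chromosomes, density, overlap and distance. The calculations were tested on simulated data. Python 3.11.15, numpy 2.4.6, pandas 2.3.3, scipy 1.17.1 and matplotlib 3.10.9 were used.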

Additional observations from a re-analysis of the deposited data

How the results depend on the processing

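No paired analysis was possible because each group has 1 library. K36M was also scaled so that all listed H3K27me3 peaks summed to the same signal in both genotypes. This moved the median log2 ratio of the domains to −0.0074, turned the ratio of totals round to 1.003 and gave 7 domains at least 1.5-fold higher. As the domains hold 61.0% of the summed WT signal, this scaling by itself brings their ratio of totals near 1. The factors allowed by rounding, an alternative added after the data were seen, gave medians of −0.144 and −0.0084, totals of 0.913 and 1.003, and 7 domains at least 1.5-fold higher at the upper bound. With only domains whose mean signal per kb was at or above the median of all peaks, 129 were left, and the median turned round to 0.027 and the total to 1.02. Of these 60 were lower and 69 higher, 0 were at least 1.5-fold lower, and the difference between wide and shorter peaks was 0.075. This filter uses the signal of both genotypes, so the K36M value in the ratio also decides which domains stay. The turned direction under this filter is therefore no separate result. The total ratio was 0.948 on autosomes, 0.982 without chromosome 15 and 0.951 from 30 kb. Without chromosome 15, 9 domains were at least 1.5-fold lower. From 30 kb, with more peaks, 264 were lower and 29 at least 1.5-fold lower. With fewer, 11 were at least 1.5-fold lower and 2 higher from 50 kb. From 60 kb there were 83 lower and 60 higher, with 7 and 1 at that fold. At 2-fold the counts were 4 and 0. The difference between the densest and least dense domains, 0.27 by geometric mean, was reversed to −0.095 when split by WT density and was 0.377 by K36M density, where the splitting value is part of the ratio. The median of chromosome 15 was −0.105 relative to all peaks. With a limit of 200 kb, domains near H3K36 methylation exceeded the far ones by 0.134. For the other changes the cause was not tested. Of 91 alternative values, 59 moved by less than the interval of the reported one or kept a count to 1.5 times. Those intervals take domains, pairs or reads of 1 library per genotype as independent, so the tally is a description. Depth limits single domains little; the missing replicate and the rounding of the factors limit the rest.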

Other observations

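Signal per kb went with length on chromosome 11 more than in the group as a whole. Over its 34 domains, Spearman's rho between length and signal per kb was 0.56 in WT and 0.55 in K36M, against 0.05 and 0.06 over all 285 domains. On the same chromosome, rho between WT density and the log2 ratio was −0.54, against −0.15 over all domains. These are descriptions over domains that share 1 library per genotype, and the difference between chromosomes was not tested.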
